A study of Rattus norvegicus with 16 samples.

Results

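Estrogen and related steroid hormones act through a small family of nuclear receptors and 1 membrane receptor, and 9 genes of this family were followed in the right ventricle of the rat. They were Esr1 and Esr2 (estrogen receptors alpha and beta), Gper1 (the G protein-coupled estrogen receptor), Pgr (progesterone receptor), Esrra, Esrrb and Esrrg (the estrogen-related receptors), Nr3c1 (glucocorticoid receptor) and Nr3c2 (mineralocorticoid receptor). Entries were taken by gene symbol, and the members were chosen with earlier results of these data known. Nr3c1 has 2 entries in the count tables, so the 9 genes gave 10 entries of 32754.

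A hormone-bound estrogen, progesterone, glucocorticoid or mineralocorticoid receptor moves to DNA, binds its response element and recruits coactivators or corepressors, while Gper1 signals from membranes through G proteins. The estrogen-related receptors resemble estrogen receptors in sequence but do not bind estrogen. They work with the coactivators Ppargc1a and Ppargc1b on genes of mitochondrial energy supply, and the heart is a tissue known for that use. Estrogen receptor alpha is known to induce Pgr in the reproductive tract, and the glucocorticoid and mineralocorticoid receptors are both known in heart muscle cells.

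The rats were female Sprague Dawley animals of 20 to 21 weeks, either wild type (WT) or ERalpha -/- (KO, mutated in the gene for estrogen receptor alpha). Each genotype was studied after a sham operation (SHAM) or after pulmonary artery banding (PAB) for 10 weeks. Banding constricts the vessel that leaves the right ventricle and so loads this chamber with pressure. Each of the 4 groups held 4 libraries of poly(A) RNA from whole right ventricle, named here by group and replicate number. Whether 2 libraries of a group come from 2 animals is not in the labels, so a p-value here measures only the spread between samples, which may be technical. The position of the Esr1 mutation is not given in the sources used here.

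Totals ranged from 22168110 to 34718633 counts per library. All 8 cardiomyocyte markers of the list used were detected, with a summed level of 28533 to 55854 CPM (counts scaled to a common library size) over the 16 libraries. A set of 3 sham libraries, WT SHAM 2, WT SHAM 3 and KO SHAM 4, stood apart by high adipocyte and mesothelial marker scores. Their summed mesothelial markers were at 57.7 to 117 CPM, against 7.65 to 29.4 CPM in the other sham libraries and 12.4 to 19.0 CPM in the banded ones. Their 8 smooth muscle and pericyte markers summed to 982 to 3092 CPM, against 188 to 396 CPM in the rest, and their cardiomyocyte markers to 28533 to 39945 CPM. The sums of the 8 adipocyte markers overlapped between these and the other libraries, but Adipoq was at 11.1 to 45.6 CPM in the 3 and at most 5.21 CPM elsewhere. No library was left out of the main values. In tissue RNA of this kind, fewer cells of a type and less RNA per cell cannot be told apart.

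Of the 9 genes, 7 passed the filter on low counts and were tested, as 8 entries. Esr2 and Pgr stayed below it. The levels that follow are CPM on TMM-scaled library sizes. They are not adjusted for transcript length, so a level can be compared between libraries for 1 gene but not between genes.

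**Figure D1:**
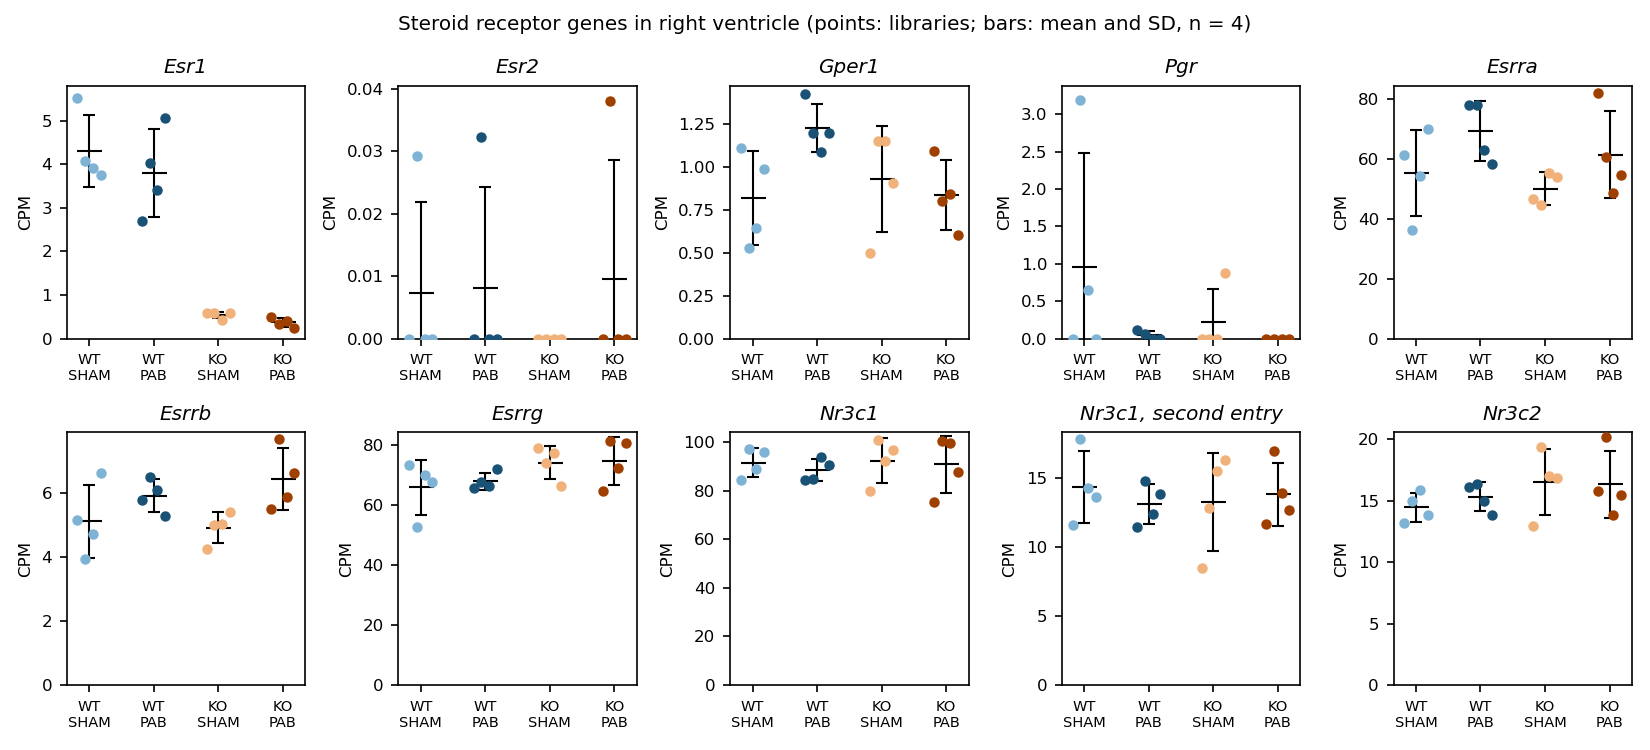
Level (CPM, linear axis from 0) of each receptor entry in the 16 right ventricle libraries, with 1 point per library and bars for the mean and SD of the 4 groups (n = 4 each). Esr1 sat at 2.69 to 5.53 CPM in WT and at 0.248 to 0.589 CPM in KO, and Esr2 and Pgr were at 0 in 13 and 11 of 16 libraries.

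Esr1 encodes the receptor whose gene carries the mutation. Its level in the 4 WT SHAM libraries was 5.53, 4.07, 3.90 and 3.74 CPM, and in WT PAB it was 2.69, 4.04, 3.42 and 5.05 CPM. In KO SHAM the values were 0.589, 0.576, 0.425 and 0.576 CPM, and in KO PAB 0.490, 0.343, 0.403 and 0.248 CPM. Every KO library lay below every WT library, while the sham and banded libraries of each genotype overlapped. Esr1 was lower in KO than in WT among sham libraries, at 0.127 of the WT level (95% interval 0.0891 to 0.182, log2 fold change -2.97, SE 0.24, edgeR adjusted p = 3.74e-05). Among banded libraries it was at 0.0985 of the WT level (0.0679 to 0.143, log2 fold change -3.34, SE 0.25, adjusted p = 1.3e-05). Only 0.00743% of the 13458 tested genes passed in each of these comparisons, which is 1 gene, Esr1 itself. A KO group wholly below its WT group, without regard to the test, held for 0.75% of tested genes in SHAM and 1.63% in PAB. The gene was not at 0 in KO: each KO library held 7 to 21 counts of it. Where on the transcript these counts lie cannot be read from the tables.

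The same fit gave no call for Esr1 between sham and banded libraries. In order of level the groups were WT SHAM at 4.31 ± 0.82 CPM (SD, n = 4), WT PAB at 3.80 ± 1.00, KO SHAM at 0.541 ± 0.078 and KO PAB at 0.371 ± 0.102. WT SHAM overlapped WT PAB and KO SHAM overlapped KO PAB, while WT PAB and KO SHAM did not overlap. The banding difference averaged over genotypes was -0.37 on the log2 scale (95% interval -0.73 to -0.01, unadjusted p = 0.0468, adjusted p = 0.213). In KO it was -0.55 (unadjusted p = 0.0523, adjusted p = 0.326). The interaction, the banding difference in KO minus that in WT, was -0.37 (-1.08 to 0.35, adjusted p = 0.999).

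The other classical estrogen receptor, Esr2, was near or below detection in every group. It had 3 counts in all, 1 each in WT SHAM 2, WT PAB 2 and KO PAB 2, and none in KO SHAM. A library's limit for a count of 0, taken as 3 counts, was 0.0823 to 0.138 CPM. Over the 4 libraries of a group, the upper exact Poisson limit (95%, counting error only) was 0.0312 CPM in KO SHAM, the lowest, and 0.0515 CPM in WT SHAM, the highest. At this depth no difference in Esr2 between WT and KO could be detected, and no fold is given.

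Pgr was at 0 in 11 of 16 libraries, and the 5 with a count were not spread evenly. WT SHAM 2 reached 3.19 CPM, KO SHAM 4 was at 0.878 CPM and WT SHAM 3 at 0.645 CPM, while WT PAB 1 and WT PAB 2 were at 0.115 and 0.065 CPM, from 3 and 2 counts. These 3 highest libraries are the 3 sham libraries that stood apart, and 159 of the 164 Pgr counts came from them. The 4 KO PAB libraries had none, which allows up to 0.0341 CPM over the group. Pgr was therefore seen in both genotypes, but in KO only in KO SHAM 4, with 32 counts. Both sham groups also held libraries at 0.

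Markers of other cell types moved with Pgr. In WT SHAM 2, WT SHAM 3 and KO SHAM 4 the adipocyte gene Adipoq was at 45.6, 28.1 and 11.1 CPM, the mesothelial gene Msln at 43.9, 20.5 and 42.5 CPM, and the smooth muscle myosin gene Myh11 at 1031, 291 and 503 CPM. KO PAB 3 also had Adipoq, at 5.21 CPM, but no Pgr count. As a description over the 16 libraries, Pgr followed the smooth muscle score with r = 0.87, the mesothelial score with r = 0.86, the adipocyte and fibroblast scores with r = 0.84 each and the macrophage score with r = 0.69, and ran against the cardiomyocyte score with r = -0.91. Those values lean on the same 3 libraries, and Spearman's rho was 0.72, 0.65, 0.64, 0.77, 0.49 and -0.48 in the same order. The 7 fibroblast markers found summed to 1494 to 2421 CPM in the 3 libraries and to 692 to 1317 CPM in the rest. The part of these cells in the Pgr counts was not tested.

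**Figure D2:**
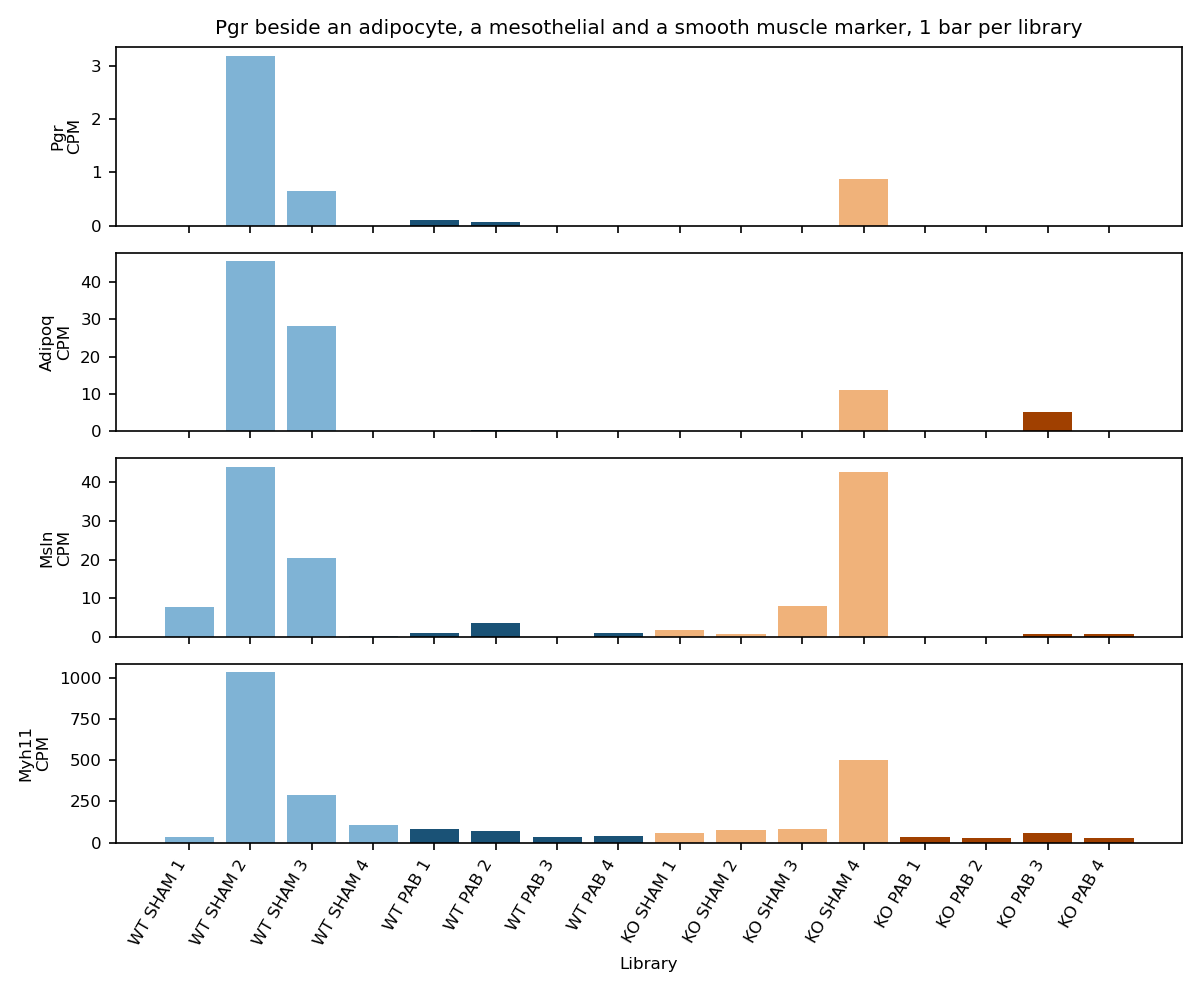
Level (CPM, linear axis from 0) of Pgr, the adipocyte marker Adipoq, the mesothelial marker Msln and the smooth muscle marker Myh11, with 1 bar per library and colours for the 4 groups. The 3 libraries with the most Pgr, WT SHAM 2 at 3.19 CPM, KO SHAM 4 at 0.878 CPM and WT SHAM 3 at 0.645 CPM, are the 3 highest for each of the markers.

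The upstream sequences of Esr1, the mutated gene, and of Pgr, a gene known to be induced through it, are shown because these are the receptor genes whose counts were most uneven across libraries. Each is the 250 bases before the annotated start, 5′ to 3′ on the gene's strand, from the RefSeq table for rat build GRCr8 (the counts were made on Rnor_6.0). Capitals would mark AGGTCA or its reverse complement TGACCT, the hexamer that estrogen receptors and estrogen-related receptors recognise, and neither window holds it.
Esr1, chr1:43641845-43642094, plus strand: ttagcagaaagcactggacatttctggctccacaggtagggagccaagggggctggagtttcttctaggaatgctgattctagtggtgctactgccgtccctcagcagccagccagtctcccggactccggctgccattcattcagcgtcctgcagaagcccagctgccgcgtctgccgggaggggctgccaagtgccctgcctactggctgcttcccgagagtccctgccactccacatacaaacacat
Pgr, chr8:14354148-14354397, plus strand: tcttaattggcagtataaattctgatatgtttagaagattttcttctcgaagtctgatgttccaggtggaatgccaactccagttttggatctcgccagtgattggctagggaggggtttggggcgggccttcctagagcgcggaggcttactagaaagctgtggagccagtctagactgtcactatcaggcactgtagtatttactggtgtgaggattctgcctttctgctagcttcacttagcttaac

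Gper1 was detected in all 16 libraries at low counts, 16 to 37 per library. Its level was 1.11, 0.527, 0.645 and 0.987 CPM in WT SHAM, and 1.42, 1.20, 1.09 and 1.20 CPM in WT PAB. In KO SHAM it was 0.496, 1.15, 1.15 and 0.906 CPM, and in KO PAB 1.09, 0.800, 0.843 and 0.603 CPM. The 4 WT PAB libraries were close together and nearly all above WT SHAM, with 1 WT SHAM library inside their range, and the 2 KO groups overlapped widely. The banding difference was 0.60 on the log2 scale in WT (SE 0.30, adjusted p = 0.463) and -0.14 in KO (SE 0.30, adjusted p = 0.878). The difference between these was tested as the interaction, at -0.74 (95% interval -1.65 to 0.18, adjusted p = 0.999), and did not pass. Without the 3 sham libraries that stood apart, 2 of which are the lowest WT SHAM values, the WT difference was 0.23 (SE 0.35). KO against WT was 0.88-fold averaged over the surgeries, with an interval from 0.642 to 1.21.

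Among the estrogen-related receptors no member passed the test for banding, for genotype or for the interaction. Esrra, the family's main partner of Ppargc1a in oxidative muscle, was at 55.4 ± 14.4 CPM in sham and 69.4 ± 10.1 CPM in banded WT libraries, and at 50.2 ± 5.4 CPM in sham and 61.6 ± 14.6 CPM in banded KO libraries (SD, n = 4). Its lowest library was WT SHAM 2 at 36.1 CPM and its highest KO PAB 1 at 82.2 CPM, and sham and banded libraries overlapped in both genotypes. Averaged over genotypes, banding gave 1.24-fold (95% interval 1.02 to 1.51, log2 fold change 0.31, SE 0.13, unadjusted p = 0.0351, adjusted p = 0.183). Without the 3 sham libraries the log2 value was 0.21 (adjusted p = 0.323). Over the 16 libraries Esrra followed the cardiomyocyte marker score with r = 0.71 and rho = 0.78, and the part of this in the banding values was not tested.

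Esrrb, the estrogen-related receptor best known from stem cells and placenta, was the member nearest to a call for banding. Its values were 5.16, 3.92, 4.73 and 6.62 CPM in WT SHAM and 5.76, 6.49, 6.10 and 5.28 CPM in WT PAB. In KO SHAM they were 4.25, 4.99, 5.01 and 5.41 CPM, and in KO PAB 5.50, 7.70, 5.86 and 6.63 CPM. Every KO PAB library was above every KO SHAM library, which also held, in that direction, for 5.86% of all tested genes, while the WT groups overlapped. The log2 difference was 0.39 in KO (SE 0.15, adjusted p = 0.241), 0.21 in WT (SE 0.15, adjusted p = 0.585) and 0.30 averaged over genotypes (95% interval 0.07 to 0.53, unadjusted p = 0.0151, adjusted p = 0.119). Without WT SHAM 4, the highest sham value at 6.62 CPM, the averaged difference was 0.38 and passed (adjusted p = 0.0373), and without the 3 sham libraries that stood apart it was 0.22 (adjusted p = 0.224).

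Esrrg, an estrogen-related receptor known for oxidative muscle and heart, overlapped between all 4 groups. Group means were 65.7 ± 9.1 CPM in sham and 67.8 ± 2.8 CPM in banded WT libraries, and 74.1 ± 5.5 CPM in sham and 74.6 ± 7.9 CPM in banded KO libraries (SD, n = 4), and the 16 values ran from 52.5 CPM in WT SHAM 2 to 81.4 CPM in KO PAB 2. Banding averaged over genotypes gave 1.02-fold, with an interval of 0.915 to 1.14. KO against WT averaged over surgeries gave 1.11-fold, with an interval of 0.999 to 1.24 (unadjusted p = 0.0515, adjusted p = 0.989).

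The glucocorticoid receptor gene Nr3c1 held the most counts of the 10 entries. Its main entry was at 91.6 ± 5.9 CPM in sham and 88.4 ± 4.6 CPM in banded WT libraries, and at 92.3 ± 9.2 CPM in sham and 90.8 ± 11.8 CPM in banded KO libraries (SD, n = 4). All groups overlapped. The intervals were the narrowest of the tested members: banding averaged over genotypes gave 0.974-fold (0.878 to 1.08) and KO against WT gave 1.02-fold (0.918 to 1.13). The second Nr3c1 entry carried 9.60% (8.57% to 10.7%) to 15.5% (14.4% to 16.7%) of the symbol's counts in a library, the lowest share in KO SHAM 1 and the highest in WT SHAM 2 (95% Wilson intervals, counting error only). Reads may have been split between the entries, so each is uncertain on its own. With both summed, the log2 difference was -0.04 for banding averaged over genotypes and 0.02 for genotype averaged over surgeries (SE 0.07 each).

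The mineralocorticoid receptor gene Nr3c2, whose product binds aldosterone and also glucocorticoids, was at 14.5 ± 1.2 CPM in sham and 15.3 ± 1.2 CPM in banded WT libraries, and at 16.5 ± 2.7 CPM in sham and 16.3 ± 2.7 CPM in banded KO libraries (SD, n = 4). WT values spanned 13.2 to 16.3 CPM and KO values 12.9 to 20.2 CPM. Banding gave 1.02-fold (95% interval 0.893 to 1.17) and KO against WT 1.10-fold (0.963 to 1.26), and neither passed.

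In the whole family, then, 1 of the 8 tested entries passed for genotype, in both surgeries and in their average, and none passed for banding or for the interaction. The share of all tested genes that passed was 0.00743% for banding in WT, 0.632% for banding in KO, 5.09% for banding averaged over genotypes, 0.00743% for genotype averaged over surgeries and 0% for the interaction. At an unadjusted p under 0.05, edgeR marked 0 of the 8 entries for banding in WT, 1 for banding in KO, 3 for banding averaged over genotypes (Esr1, Esrra and Esrrb) and 0 for the interaction. Of all tested genes it marked 11.7%, 15.6%, 22.7% and 1.76% in the same order. DESeq2 and limma-voom each called 0 in these 4 comparisons and Esr1 alone for genotype. The median log2 difference of the 8 entries was 0.03 for averaged banding and 0.00 for averaged genotype, beside -0.02 and -0.01 over all tested genes.

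**Figure D3:**
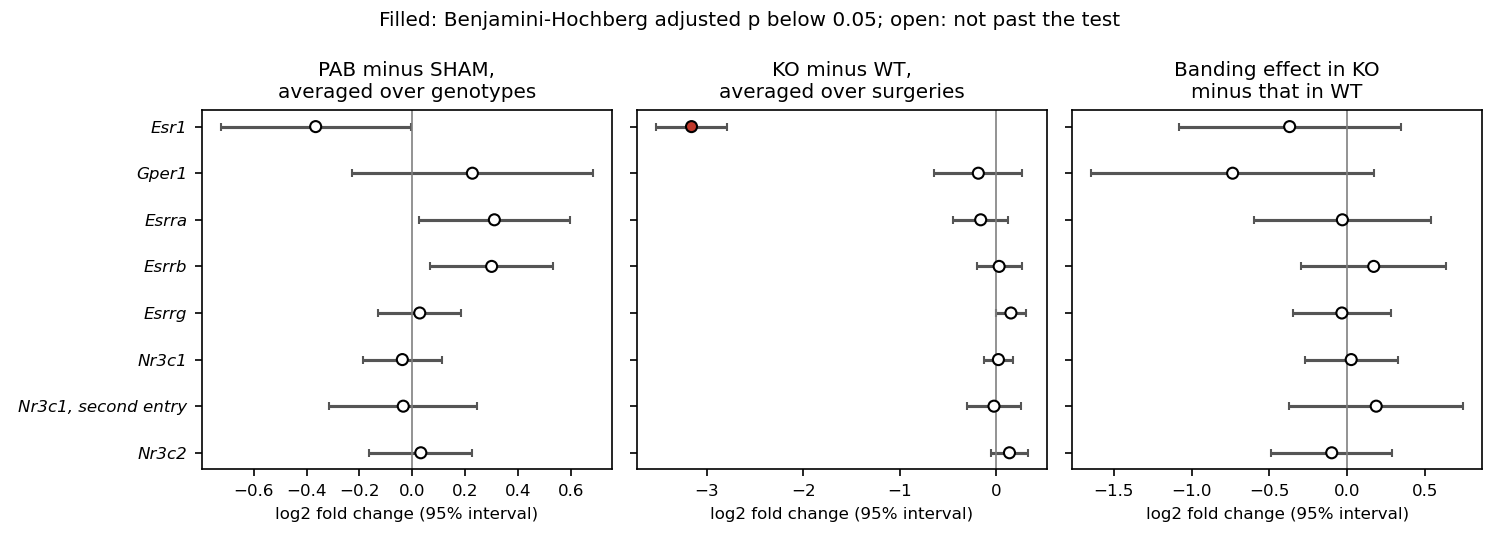
Log2 fold change with its 95% interval for the 8 tested receptor entries, for banding (PAB minus SHAM) averaged over genotypes, genotype (KO minus WT) averaged over surgeries, and the interaction, each panel on its own linear scale. The 1 filled point is Esr1 for genotype at -3.16, and the intervals of Esrra (0.02 to 0.60) and Esrrb (0.07 to 0.53) for banding lie above 0 without passing the adjusted test.

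Members were also set against each other and against all other genes over the 16 libraries, as descriptions that share library depth and tissue makeup. Between members, the Pearson correlation of log2(CPM + 1) was highest between the 2 Nr3c1 entries (r = 0.66), Esrra and Gper1 (r = 0.65) and Esrra and Esrrb (r = 0.61), and lowest between Esr1 and Esrrg (r = -0.50). The genes most like Esrra were Mrpl54 (r = 0.98) and Timm13 (r = 0.97), which encode a mitochondrial ribosomal protein and a mitochondrial import chaperone, and the potassium channel gene Kcng2 (r = 0.96). Esr1 was most like Adcy2, an adenylyl cyclase gene (r = 0.88, rho = 0.70), Dnajc17 (r = 0.82, rho = 0.89) and Spon2 (r = 0.81, rho = 0.85). Esr1 itself was at 2.69 to 5.53 CPM in WT and 0.248 to 0.589 CPM in KO. Its correlations therefore lean on the difference between genotypes. Gper1 was most like Arf5 (r = 0.86), Cuta (r = 0.81) and Mtm1 (r = 0.80).

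The genes nearest to Esrrb were Plxnb1, Nisch and Rbm20 (r = 0.87 each), the last a splicing regulator of titin. Esrrg was closest to Fyttd1 (r = 0.89), Ap1s3 (r = 0.85) and the kinase gene Map2k4 (r = 0.84). For Nr3c1 they were Sin3a, a corepressor scaffold (r = 0.86), Crebrf (r = 0.85) and Slfn5 (r = 0.83), and for its second entry Phc3, Scarb1 and Chst7 (r = 0.88 each). Nr3c2 had the loosest neighbours, Cfap70 (r = 0.79), Pde7b (r = 0.77) and Xpnpep2 (r = 0.76). Pgr was nearest to Lrrtm3, Npnt (r = 0.98 each) and Tmem43 (r = 0.97), values that again lean on 3 libraries.

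Genes that make or inactivate the hormones were read next, from a list of 23, of which 13 were tested. Cyp19a1, the aromatase that makes estrogens from androgens, had 0 counts in all 16 libraries. For banding averaged over genotypes 2 of the 13 were higher and 0 lower, against 3.24% and 1.85% of all tested genes, and the list's median log2 difference was -0.15 beside -0.02 over all tested genes. Sts, the steroid sulfatase that frees estrogens and other steroids from their sulfates, was at 7.51, 6.79, 8.67 and 12.8 CPM in WT SHAM and 24.1, 18.0, 16.1 and 14.8 CPM in WT PAB. In KO SHAM it was at 6.63, 7.75, 10.8 and 12.6 CPM, and in KO PAB at 27.2, 13.7, 15.1 and 15.5 CPM.

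Every banded library had more Sts than every sham library of its genotype, which held in the higher direction for 1.22% of tested genes. Sts rose 1.97-fold with banding averaged over genotypes (95% interval 1.49 to 2.60, log2 fold change 0.97, SE 0.19, adjusted p = 0.0108). The value was 0.97 without the 3 sham libraries (adjusted p = 0.0305). KO against WT gave 1.02-fold (0.771 to 1.34) for Sts. Hsd17b4, which oxidises estradiol to the weaker estrone and also serves peroxisomal fat oxidation, rose 1.19-fold with banding (1.08 to 1.32, adjusted p = 0.0477). It was at 131 ± 16 and 165 ± 8 CPM in WT SHAM and WT PAB, and at 148 ± 13 and 168 ± 12 CPM in KO SHAM and KO PAB (SD, n = 4). That call was lost in 19 of 25 alternatives, among them without the 3 sham libraries (adjusted p = 0.071). In that fit Hsd17b8, of the same enzyme family, passed at -0.39 (adjusted p = 0.0342), as did 7% of all tested genes. The lowest WT SHAM and KO SHAM values of Hsd17b8, 18.4 and 18.2 CPM, were in libraries left out of that fit.

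Hsd11b1, the enzyme that regenerates active glucocorticoid from its inactive form and so feeds Nr3c1 and Nr3c2, differed most by genotype among the genes of this list without passing. It was at 21.9, 26.4, 25.6 and 13.8 CPM in WT SHAM and 33.9, 29.3, 27.6 and 33.6 CPM in KO SHAM. In WT PAB it was at 18.9, 21.4, 17.5 and 18.2 CPM, and in KO PAB at 28.2, 30.2, 35.8 and 22.2 CPM. Within each surgery every KO library was above every WT library, which of the 13458 tested genes held for Hsd11b1 only (0.00743%). How many genes chance alone would separate in this way was not tested. Averaged over surgeries KO against WT gave 1.47-fold (95% interval 1.23 to 1.77, log2 0.56, SE 0.12, unadjusted p = 0.000425, edgeR adjusted p = 0.598), and DESeq2 called it (adjusted p = 0.0378), as it did 0.0893% of the genes it tested. Hsd11b1 did not pass in the other 24 of 25 alternatives. Without the 3 sham libraries the log2 value was 0.69 (adjusted p = 0.25). Hsd11b2, the enzyme that inactivates glucocorticoid beside the mineralocorticoid receptor, had 0 to 10 counts per library, with 43 over the 8 WT libraries and 18 over the 8 KO libraries, and was not tested. Of these counts, the 3 sham libraries that stood apart held 10 (WT SHAM 2), 7 (WT SHAM 3) and 8 (KO SHAM 4). Outside them the highest count was 8, in WT PAB 1.

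The coregulators and chaperones that estrogen receptors use were followed in 21 genes, of which 19 were tested and 0 passed in any comparison. For banding averaged over genotypes 4 of the 19 had an unadjusted p under 0.05, beside 22.7% of all tested genes. DESeq2 called 1 (Hsp90aa1), beside 9.94% of all genes it tested, and limma-voom called 0. Nrip1, a corepressor and estrogen target, was at 24.8 ± 1.2 CPM in sham and 21.6 ± 0.5 CPM in banded WT libraries, and at 24.6 ± 3.4 CPM in sham and 22.1 ± 2.5 CPM in banded KO libraries (SD, n = 4; averaged banding log2 -0.18, adjusted p = 0.144). Without the 3 sham libraries Fkbp4, a chaperone of steroid receptor complexes, passed for averaged banding at -0.58 (adjusted p = 0.0244), against -0.39 (adjusted p = 0.113) with all 16. In that fit 7% of all tested genes passed. The lowest WT SHAM and KO SHAM values of Fkbp4, 177 and 197 CPM, were in libraries left out of it.

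Of 14 genes known to respond to estrogen, all were tested and 0 passed in any comparison. For averaged genotype 0 of the 14 had an unadjusted p under 0.05, beside 4.93% of all tested genes, and DESeq2 and limma-voom called 0. The list's median log2 difference was -0.02 beside -0.01 over all tested genes. For averaged banding 6 had an unadjusted p under 0.05, beside 22.7% of all tested genes. DESeq2 called 2 of the 14, Nos3, the endothelial nitric oxide synthase, and Tgfa, beside 9.94% of all genes it tested. Tgfa ran from 0.990 to 12.6 CPM in WT PAB, with a median of 1.42 CPM, and from 0.599 to 3.04 CPM in WT SHAM (edgeR unadjusted p = 0.115). In KO the banded libraries, at 2.56 to 11.7 CPM, lay above the sham ones, at 0.307 to 2.55 CPM, as for 5.86% of tested genes. Without the 3 sham libraries 3 passed for averaged banding, a fit in which 7% of all tested genes passed. They were chosen here after their values were seen: the cyclin gene Ccnd1 at 0.98 (adjusted p = 0.018, against 0.56 with all 16 libraries), the retinoic acid receptor gene Rara at 0.54 (adjusted p = 0.0243, against 0.35) and Tgfa at 3.14 (adjusted p = 0.0439, against 1.98). In KO alone Ccnd1 and Rara passed in that fit, with adjusted p of 0.035 and 0.0342, as did 2.53% of all tested genes. For each of the 3 genes, the highest WT SHAM and KO SHAM values were in libraries left out of that fit. These values were 51.4 and 38.9 CPM for Ccnd1, 12.8 and 11.4 CPM for Rara, and 3.04 and 2.55 CPM for Tgfa. Greb1, a classical estrogen receptor target, was at 1.10 ± 0.35 CPM in sham and 1.14 ± 1.17 CPM in banded WT libraries, and at 1.24 ± 0.38 CPM in sham and 0.793 ± 0.083 CPM in banded KO libraries (SD, n = 4), and KO against WT gave 0.89-fold (95% interval 0.535 to 1.48).

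Partners and energy targets of the estrogen-related receptors were followed in 24 genes, of which 23 were tested and 0 passed in any comparison. At an unadjusted p under 0.05 there were 3 of the 23 for averaged banding and 0 for averaged genotype, beside 22.7% and 4.93% of all tested genes. As for calls, limma-voom called 0 in both, and DESeq2 called 1, Ucp2, for banding, beside 9.94% of all genes it tested. The median log2 difference was 0.03 for banding and 0.02 for genotype, beside -0.02 and -0.01 over all tested genes. Ppargc1a was at 41.8 ± 9.2 CPM in sham and 47.2 ± 3.6 CPM in banded WT libraries, and at 44.8 ± 6.4 CPM in sham and 45.9 ± 16.1 CPM in banded KO libraries (SD, n = 4). Ppargc1b was at 18.8 ± 6.3, 19.4 ± 2.4, 13.6 ± 3.9 and 16.5 ± 2.8 CPM in the same order, and KO against WT gave 0.788-fold (0.618 to 1.00, unadjusted p = 0.0534). Perm1, a muscle regulator that acts with these coactivators, was at 279.7 ± 67.1, 289 ± 13, 266 ± 33 and 250.3 ± 7.0 CPM.

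Of 21 glucocorticoid-responsive genes, all tested, 1 was lower with banding averaged over genotypes and 0 were higher, against 1.85% and 3.24% of all tested genes. That gene was Foxo1, a transcription factor of the fasting and atrophy programme, at 23.3 ± 1.9 CPM in sham and 19.5 ± 1.2 CPM in banded WT libraries, and at 24.1 ± 2.8 CPM in sham and 17.0 ± 2.8 CPM in banded KO libraries (SD, n = 4). Averaged over genotypes it fell to 0.768 of the sham level (95% interval 0.682 to 0.865, adjusted p = 0.0155). Without the 3 sham libraries its log2 value was -0.34 in place of -0.38 (adjusted p = 0.0503). In that fit 2 other genes of the list passed, Dusp1 at -0.47 (adjusted p = 0.043) and Sgk1 at -0.43 (adjusted p = 0.024), as did 7% of all tested genes. The lowest WT SHAM values of both, 118 CPM for Dusp1 and 21.1 CPM for Sgk1, were in WT SHAM 2, which that fit leaves out. With all libraries DESeq2 called Foxo1 and Sult1a1 for averaged banding, beside 9.94% of all genes it tested. The list's median log2 difference was -0.04 for banding in WT, -0.24 for banding in KO and -0.32 for the interaction. Over all tested genes it was -0.02, -0.02 and 0.01, and edgeR called 0 of the list in each. Fkbp5, a chaperone gene that glucocorticoids induce, was at 28.8 ± 6.2 CPM in sham and 33.6 ± 10.3 CPM in banded WT libraries, and at 48.1 ± 20.9 CPM in sham and 44.4 ± 10.9 CPM in banded KO libraries (SD, n = 4). Its KO values ranged from 28.3 to 66.7 CPM and its WT values from 23.9 to 48.9 CPM, and KO against WT gave 1.49-fold (1.09 to 2.02, unadjusted p = 0.0154, adjusted p = 0.989). Tsc22d3, another gene induced by glucocorticoids, was at 118 ± 50, 108 ± 15, 134 ± 12 and 117 ± 23 CPM in the same order of groups, and KO against WT gave 1.11-fold (0.866 to 1.42).

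Of 13 tested mineralocorticoid-responsive genes (15 listed), 1 was higher with banding averaged over genotypes and 0 were lower, against 3.24% and 1.85% of all tested genes. Rcan1, an inhibitor of the phosphatase calcineurin, was at 451, 249.9, 323 and 309 CPM in WT SHAM and 961, 641, 584 and 659 CPM in WT PAB. In KO SHAM it was at 584, 390.3, 460.3 and 238 CPM, and in KO PAB at 896, 944, 640.3 and 760.4 CPM. All banded libraries lay above the sham libraries of their genotype, as for 1.22% of tested genes. Rcan1 rose 2.03-fold (95% interval 1.57 to 2.64, adjusted p = 0.0063), and by 0.84 on the log2 scale without the 3 sham libraries (adjusted p = 0.0199) in place of 1.02. In that fit, in which 7% of all tested genes passed, 3 of the list did, the others being Ctgf at 1.92 (adjusted p = 0.0178) and Sgk1, which both hormone lists hold. The highest WT SHAM and KO SHAM values of Ctgf, 383 and 316 CPM, were in libraries left out of that fit. For genotype, 0 genes of the glucocorticoid list and 0 of the mineralocorticoid list passed in edgeR, DESeq2 or limma-voom, with 2 and 1 at an unadjusted p under 0.05 averaged over surgeries, beside 4.93% of all tested genes.

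**Figure D4:**
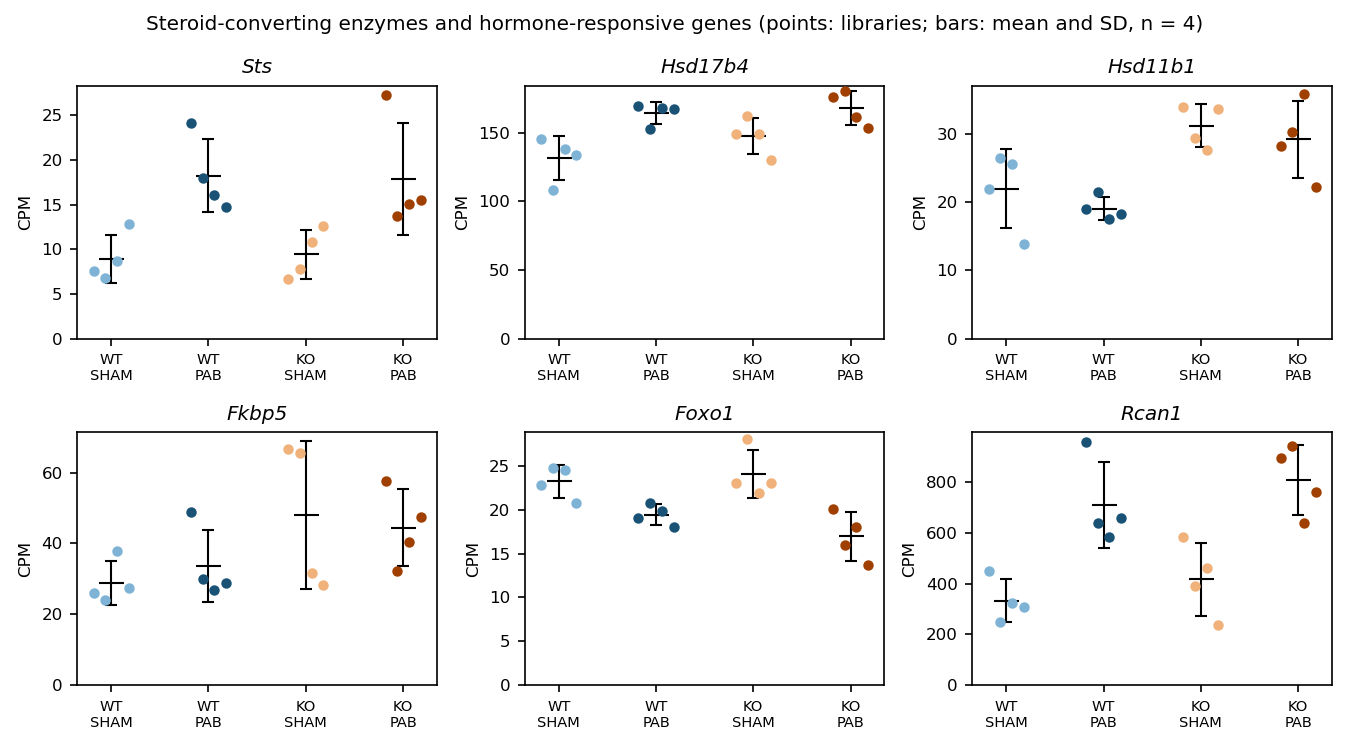
Level (CPM, linear axis from 0) of the steroid-converting enzyme genes Sts, Hsd17b4 and Hsd11b1 and of the hormone-responsive genes Fkbp5, Foxo1 and Rcan1, with 1 point per library and bars for the mean and SD of each group (n = 4). Banded libraries are above sham libraries of their genotype for Sts and Rcan1, and KO libraries are above WT libraries of their surgery for Hsd11b1, whose adjusted p of 0.598 did not pass.

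Upstream windows of 250 bases were searched on both strands for letters that these receptors are known to bind. The table held 11 windows for 7 of the 9 receptor genes. The estrogen response element (GGTCA and TGACC with any 3 bases between) was in 0 of the 11 and in 0.0239% of 33469 windows of all genes, the ERR element TCAAGGTCA in 0 and 0.388%, and the element of the glucocorticoid, mineralocorticoid and progesterone receptors (GNACA and TGTNC with any 3 bases between) in 0 and 0.374%. The hexamer AGGTCA, which the ERR element contains, was in 1 of the 11 windows and in 14.1% of all windows. It was in 12 of 86 windows of the pathway genes (14.0%), and of the 4 genes that passed with banding it was in the windows of Sts and Hsd17b4 and in neither of those of Foxo1 and Rcan1. Of the same 86 windows, the estrogen response element and the ERR element were in 0. The element of the glucocorticoid, mineralocorticoid and progesterone receptors was in 2 (2.33%), those of Orm1 and Trim63. All these matches are letters in a window and not sites of binding. The 1 receptor window with the hexamer, an Esrrg start, and the window of Sts, an enzyme gene that rose with banding, are shown with the hexamer (read as TGACCT on the printed strand) in capitals.
Esrrg, chr13:101755510-101755759, plus strand: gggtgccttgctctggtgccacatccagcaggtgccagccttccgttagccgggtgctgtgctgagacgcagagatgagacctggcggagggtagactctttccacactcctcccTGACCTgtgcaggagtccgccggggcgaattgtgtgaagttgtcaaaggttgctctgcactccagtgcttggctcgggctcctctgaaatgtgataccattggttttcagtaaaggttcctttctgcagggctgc
Sts, chrX:46102510-46102759, plus strand: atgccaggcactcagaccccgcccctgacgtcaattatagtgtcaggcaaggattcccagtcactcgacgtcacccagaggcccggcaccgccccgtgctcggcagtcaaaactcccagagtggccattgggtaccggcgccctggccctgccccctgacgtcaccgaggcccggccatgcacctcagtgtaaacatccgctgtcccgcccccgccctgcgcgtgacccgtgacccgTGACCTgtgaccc
The hexamer's first base lay 135 bases before the start for Esrrg and 13 bases before it for Sts.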

How the data were processed

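Messenger RNA of 16 right ventricle libraries was made with a stranded TruSeq kit, per the labels' protocols. The deposited values are expected counts per gene symbol, whole numbers as the authors deposited them, and the submitters' processing notes name STAR 2.5.3a, RSEM 1.3.0 and Rnor_6.0. Annotation, strandedness of the counting and rounding are not given in the sources used here, so reads of overlapping or antisense genes cannot be told apart. Of 32754 entries, 274 symbols occur more than once and were kept apart.

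From these counts, edgeR 4.0.16 (R 4.3.3) was run on all 16 libraries with TMM scaling, filterByExpr (min.count 10) and a robust quasi-likelihood fit of 4 group means, tested on simulated data. It left 13458 genes. A gene passed at a Benjamini-Hochberg adjusted p below 0.05 over all tested genes of a comparison. The 7 comparisons were banding in each genotype, genotype in each surgery, both averages and the interaction. DESeq2 1.42.0, limma-voom (limma 3.58.1), other scalings, filters, a replicate block and left-out libraries were tried as alternatives.

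Members and lists were chosen with earlier results of these data known. Named genes are the 9 receptors, a preset set of 10 pathway genes shown whatever their change, up to 4 genes with the smallest p among those past the test from each list, and the 3 genes best correlated with each receptor among genes with a mean of at least 1 CPM. Exceptions are named as such, or were called by an alternative. A library stood apart where its adipocyte and mesothelial scores (mean z-scores of log2(CPM + 1)) both exceeded 0.4. Leaving out these 3 libraries, using the scores as a covariate and summing the Nr3c1 entries were chosen after seeing the data. The replicate numbers were not used to pair the libraries in the main fit.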

Additional observations from a re-analysis of the deposited data

Results flagged for a closer look

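Within groups of 4, a value was picked out where its gap to the nearest other value, over the range of the group, exceeded Dixon's 95% limit for 4 values. Chance alone picks about 5 in 100 groups, and 96 groups were checked. For the receptors, Esr1 in KO SHAM 3 was at 0.425 CPM against 0.576 to 0.589 CPM in the rest of its group. Pgr in KO SHAM 4 was at 0.878 CPM against 0 in the other KO SHAM libraries.

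Among pathway genes, Ppargc1b in WT SHAM 4 was at 28.2 CPM (others 15.2 to 16.0). Greb1 in WT PAB 4 was at 2.89 CPM (others 0.511 to 0.582). Fkbp5 in WT PAB 1 was at 48.9 CPM (others 26.7 to 29.98), Sts in KO PAB 1 at 27.2 CPM (others 13.7 to 15.5) and Hsd17b4 in WT PAB 2 at 152.9 CPM (others 168 to 169.8).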

How the results depend on the processing

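Receptor calls were the same in all alternatives run except 1: without WT SHAM replicate 4 the number of receptors past the test for averaged banding was 1 (Esrrb) in place of 0, so leaving out 1 replicate gave 0 to 1. Esr1 passed for genotype in every alternative (highest adjusted p 0.00503). Of 1425 receptor values, 73 not past the test changed sign, in 23 of 56 results, and none of these passed. Group levels of the receptors were recomputed 80 times over other scalings, and all 80 values stayed within 1 SD of the group. For Esr2 and Pgr that SD reached 200% of the mean, so the check could show little for them. Counts over all genes moved more: averaged banding gave 685 genes and 356 to 1337 under alternatives, banding in KO 85 and 0 to 658, banding in WT 1 and 0 to 108, averaged genotype 1 and 1 to 12, and genotype in PAB 1 and 1 to 5. DESeq2 gave 1337, 509, 108, 12 and 5 of these. Banding in KO gave 344 without the 3 sham libraries that stood apart. The cause was not tested. With the replicate block the receptor calls were 0 for each banding comparison and 1 for each genotype comparison, as without it, and banding in KO gave 0 genes. Only 3 of 16 libraries correlated best with their own number, and pair correlations ran from -0.62 to 0.56. What the number stands for is not in the labels, and these correlations cannot exclude a shared batch or pairing. Esr2 and Pgr did not pass the count filter and have no test, and Gper1, with 16 to 37 counts per library, has the widest intervals of the tested receptors.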
